A study of Mus musculus with 33 samples.

Results

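The genes of the cytosolic ribosomal proteins were described in E14Tg2a embryonic stem (ES) cells and in ΔK9.1 and ΔK9.2 during embryoid body (EB) differentiation. Members were all genes whose symbol starts with *Rpl* or *Rps* and a digit, with *Rplp0*, *Rplp1*, *Rplp2* and *Rpsa*, and without names that hold "-ps" (77 genes) or start with *Rps6k* (10 genes, kinases of ribosomal protein S6). The rule uses symbols only and no measured value, and it left 91 members of 16336 genes in the deposited table. Of these, 76 encode standard ribosomal proteins, 31 of the small and 45 of the large subunit, the latter including the 3 stalk proteins. A further 8 are paralogs of a standard gene, among which the copy *Rps12l1* was counted, and 5 are extra copies. The last 2, *Rps19bp1* and *Rpl7l1*, called name-only genes below, match the naming rule without encoding ribosomal proteins. By the annotation, 85 members are protein coding and 6 (*Rps4l*, *Rpl37rt*, *Rpl6l*, *Rps12l1*, *Rps3a2* and *Rps3a3*) have a processed pseudogene biotype. *Fau* and *Rack1*, which also encode ribosomal proteins, lie outside the naming rule and are given apart.

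E14Tg2a is a wild-type ES cell line of the 129/Ola strain, and each mutant line is 1 clone of it with a homozygous deletion of the region upstream of *Nanog* that carries H3K9me3, a histone mark of silent chromatin. Undifferentiated cells grew on gelatine in medium with serum and LIF (day 0), and aggregates were moved to untreated dishes without LIF for 4 days (day 4), after which they were plated at low density on gelatine until days 6 and 8. The later days and this change of culture cannot be told apart. The 33 poly-A RNA-seq libraries comprise 3 replicates per line and day, except on day 6, where each line has replicates 2 and 3. By the study's methods the libraries came from 3 independent assays with the lines run in parallel, although no source used here ties a replicate number to an assay. With 1 clone per deletion line a clone's own variation and the deletion cannot be told apart.

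The cytosolic ribosome consists of a small subunit, which decodes the mRNA, and a large subunit, which joins amino acids. Each protein is needed in about the same number per ribosome, and free ribosomal proteins are degraded. Most mRNAs of ribosomal proteins begin with a C followed by a run of pyrimidines, the terminal oligopyrimidine (TOP) motif, through which the TOR kinase pathway controls their translation. The large subunit stalk, built on *Rplp0* with *Rplp1* and *Rplp2*, recruits the translation factors with GTPase activity.

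Sequences around the annotated start of transcription, where a TOP motif would lie, were read from RefSeq promoters (GRCm38.p6, 250 bases before to 50 bases after each start). They were found for 66 members and for 56 of the 76 standard genes, which have 66 promoters. Of the 5 members with the highest mean level, *Rplp1*, *Rpl23a*, *Rps14*, *Rps2* and *Rps21*, the starts of *Rps2* and *Rps21* are shown first. The others were chosen after values were seen, since results below turn on these genes or because they show the C/T run clearly. The capitals mark the longest run of at least 8 C or T, each window is 30 bases, and windows without capitals hold no such run and are centred on the start.
Rps2, chr17:24720048-24720077, plus strand: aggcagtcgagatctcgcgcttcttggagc
Rps21, chr2:180257364-180257393, plus strand: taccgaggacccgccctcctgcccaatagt
Rps24, chr14:24490664-24490693, plus strand: ccgcgctggggTCCTTCCTTgcgcgttgat
Rps27, chr3:90213632-90213661, minus strand: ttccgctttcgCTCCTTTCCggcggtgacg
Rpl13a, chr7:45128722-45128751, minus strand: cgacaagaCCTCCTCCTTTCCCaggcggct
Rps26, chr10:128626485-128626514, minus strand: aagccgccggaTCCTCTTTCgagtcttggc
Rps12, chr10:23787182-23787211, minus strand: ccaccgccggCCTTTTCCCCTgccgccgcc
Rplp0, chr5:115559452-115559481, plus strand: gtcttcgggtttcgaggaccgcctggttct
Rps3, chr7:99483695-99483724, minus strand: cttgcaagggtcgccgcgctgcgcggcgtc
Rps19, chr7:24884577-24884606, plus strand: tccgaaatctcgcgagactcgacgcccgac
In these windows *Rps24*, *Rps27*, *Rpl13a*, *Rps26* and *Rps12* carry the run, whereas *Rps2*, *Rps21*, *Rplp0*, *Rps3* and *Rps19* do not. Over all promoters of standard genes, a run of at least 8 C or T on the sense strand lay within 30 bases of the start in 34 of 66 (51.5%), compared with 22.9% of all 32851 promoters and 22.1% of the 14654 promoters of genes in the expression table. The motif CCGGAAG, sought on both strands across the 300 bases, was present in 24 of 66 (36.4%), 8.86% of all promoters and 16.2% of those of listed genes. AAGATGGC was found in 10.6% of the standard genes' promoters, against 2.75% and 3.99%, and CACGTG, the E-box, in 12.1%, against 7.15% and 9.74%. TATAAA was found in 9.09%, against 13.6% and 7.35%, and CCAAT in 31.8%, against 37.4% and 38.0%. The promoters of standard genes had a median GC content of 58.5% and a median of 21.5 CG dinucleotides, against 60.3% and 19 for listed genes. These matches describe letters in a window and are not binding sites.

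To show where such motifs lie, the 100 bases before the first annotated start of *Rps21* and *Rps27* are printed with the CCGGAAG and AAGATGGC matches in capitals.
Rps21, chr2:180257279-180257378, plus strand: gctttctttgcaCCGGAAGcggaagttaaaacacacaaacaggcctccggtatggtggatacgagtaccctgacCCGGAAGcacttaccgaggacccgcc
Rps27, chr3:90213649-90213748, minus strand: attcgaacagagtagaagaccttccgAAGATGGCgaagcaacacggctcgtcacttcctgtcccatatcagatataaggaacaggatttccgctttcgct
*Rps21*, one of the 5 most abundant members, holds CCGGAAG more than once in this stretch, and *Rps27*, a zinc finger protein of the small subunit, holds AAGATGGC.

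Values are TPM (a level per transcript length, scaled to a fixed library total by the authors), so they keep no number of reads, and beyond 1 approximate number of sequenced reads that the study's methods state for every library, the depth behind each value is unknown. The listed genes summed to between 994280 and 998270 TPM per library, 12903 to 13905 genes reached 1 TPM, and the mitochondrial genes held 2.01 to 4.07% of the listed TPM. *Nanog* spanned 21.97 to 486 TPM over the libraries. Markers of pluripotent cells were summed as a check of the labels. The 10 markers reached 8101 to 10773 TPM on day 0 and 418 to 1763 TPM on day 8, and none of them was at 0 in a whole group.

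Ribosomal protein mRNAs were among the most abundant of all. Of the 100 genes with the highest mean TPM over the 12 groups, 61 were standard ribosomal protein genes, and of the top 50, 36 were. Together the 91 members held between 22.6 and 33.1% of the listed TPM, with a median of 26.2% over the 33 libraries. Mean levels of the standard genes ran from 306 TPM for *Rps3a1*, which has near-identical copies, to 7300 TPM for *Rplp1*, a stalk protein. Their median was 3114 TPM, when the median of all genes was 10.3 TPM. The 5 lowest members, *Rpl3l*, *Rps12l1*, *Rpl6l*, *Rpl39l* and *Rps27rt*, are all paralogs or extra copies.

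The standard genes also varied little. The ratio of a gene's highest to its lowest group mean (TPM + 1) had a median of 1.40 over the 76 standard genes and ranged from 1.18 to 1.92. It was under 1.5 in 63.2% of them, compared with 11.3% of all genes and 31.0% of the 1392 genes averaging 100 TPM or more. These 1392 include the standard genes and had a median level of 187 TPM, so they are not matched to them in level. *Rps12* (1.92), a small subunit protein, *Rpl30* (1.81), of the large subunit, *Rps21* (1.80) and *Rplp0* (1.78) varied most among the standard genes. For the other 15 members the median ratio was 1.88, and it reached 66.4 for *Rpl10l* and 31.4 for *Rpl39l*.

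What the group did over time was first asked of its summed share. The share was highest on day 4 in all 3 lines. In E14Tg2a it was 25.4% ± 1.03 (SD, n = 3) on day 0, 28.9% ± 0.625 (SD, n = 3) on day 4, 25.9% ± 0.849 (SD, n = 2) on day 6, then 24.3% ± 2.66 (SD, n = 3) by day 8. In ΔK9.1 it was 25.6% ± 0.230, 31.8% ± 1.19, 27.2% ± 2.33 and 26.1% ± 3.36, and in ΔK9.2 25.1% ± 0.844, 31.1% ± 0.732, 26.1% ± 0.892 and 26.3% ± 0.975, with the same n. In each line the lowest day 4 library lay above the highest day 0 library (28.2 against 26.2% for E14Tg2a, 31.0 against 25.8% for ΔK9.1 and 30.4 against 26.1% for ΔK9.2). Day 8 was the most variable, spanning 22.6 to 27.4% in E14Tg2a and 23.6 to 29.9% in ΔK9.1.

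With the day permuted within each line, the share was 5.24 percentage points higher on day 4 than on day 0 (exact permutation test, two-sided here and below, p = 0.00025, the smallest it can give, adjusted p = 0.0005 over the 4 day comparisons). From day 4 to day 8 it fell by 5.03 percentage points (exact permutation test, p = 0.00025, adjusted p = 0.0005). Day 6 was 1.03 points above day 0 (exact permutation test, p = 0.09, adjusted p = 0.12) and day 8 0.21 points above it (exact permutation test, p = 0.816), and neither passed. These tests take the 9 libraries of a day as independent within lines, although the lines ran in parallel in 3 assays. With the lines averaged within each replicate number, a choice made after seeing the data, the differences of days 4 and 0 and of days 8 and 4 had p = 0.1 each (exact permutation test, the smallest that 3 numbers per day can give). Within single lines the rise from day 0 to day 4 was 3.57 points for E14Tg2a, 6.12 for ΔK9.1 and 6.02 for ΔK9.2 (exact permutation test, p = 0.1 each, no smaller value being possible with 3 libraries per day). In bulk samples, fewer cells of a type and less RNA per cell cannot be told apart, and a share of TPM also moves when other genes change. From day 0 to day 4 the mitochondrial share fell in every line without overlap of libraries, from 3.46 to 3.53% to 2.30 to 2.86% in E14Tg2a, from 3.33 to 3.83% to 2.57 to 2.99% for ΔK9.1 and from 3.07 to 3.81% to 2.01 to 2.45% for ΔK9.2. Genes at 1 TPM or more numbered 13433 to 13670 on day 0 and 12903 to 13251 on day 4 in ΔK9.1, and the days overlapped in the other lines. The part of these measures in the day 4 peak was not tested.

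**Figure D1:**
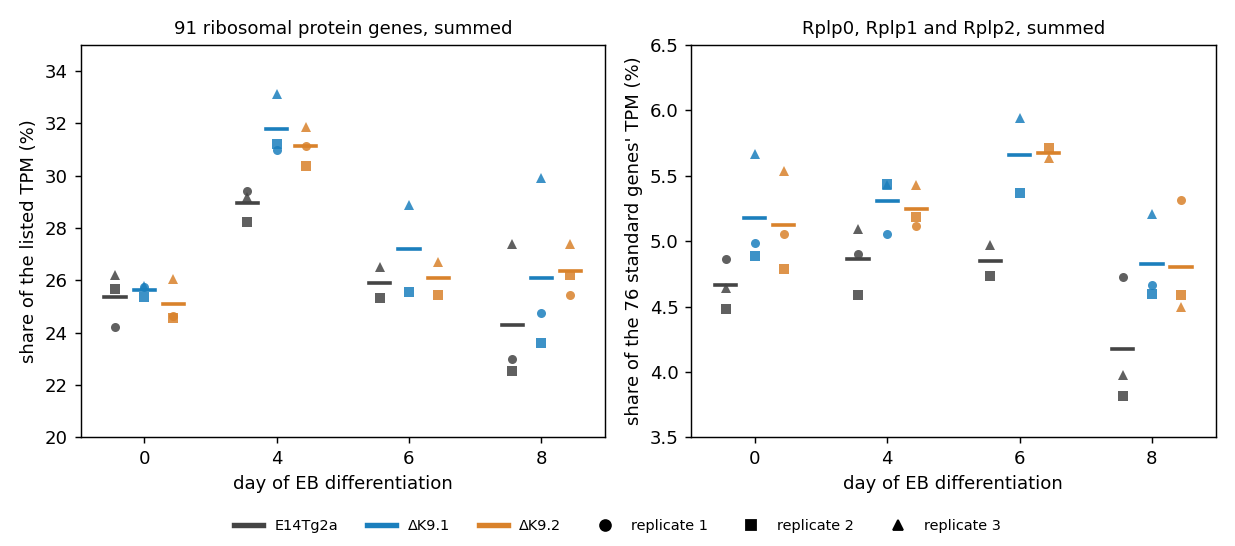
Left, the share of the listed TPM held by the 91 ribosomal protein genes (%), and right, the share of the standard genes' TPM held by *Rplp0*, *Rplp1* and *Rplp2* (%), in each of the 33 libraries by day of EB differentiation; colours are lines, symbols are replicate numbers and bars are group means, and the axes do not start at 0. The share of members peaks on day 4 in all 3 lines (28.9, 31.8 and 31.1%).

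Gene by gene, the day 4 rise was small and broad. On limma's log2(TPM + 1) scale, with a call at an adjusted p under 0.05 over all 16336 genes, 20 of 91 members rose and 4 fell in E14Tg2a on day 4, against 10.4% of all genes that rose and 15.9% that fell. In ΔK9.1 41 rose and 4 fell (all genes, 4.28% and 24.9%), and in ΔK9.2 37 rose and 6 fell (all genes, 8.09% and 24.2%). Of the 76 standard genes 19, 39 and 36 rose in the 3 lines and 0 fell (limma, also 0 in each line at an unadjusted p under 0.05), with 0 to 1 of 76 at a negative value in the clones and 9 of 76 in E14Tg2a. Their median log2 fold change was 0.18, 0.32 and 0.31, while the median of all genes was -0.07, -0.21 and -0.16. No called member rose by more than 1 on the log2 scale, the threshold of the study, in any line on day 4. Of 10 pluripotent cell markers 6 fell to day 4 in E14Tg2a, where they summed to 4678 to 6373 TPM against 9194 to 10179 TPM on day 0, and of 12 endoderm markers 6 rose (114 to 913 TPM against 9.40 to 141 TPM, with *Afp* at 0 on day 0). The pluripotent cell markers summed to 8101 to 9542 and 5379 to 6741 TPM on days 0 and 4 for ΔK9.1, and to 10099 to 10773 and 4549 to 7991 TPM for ΔK9.2, with 6 of 10 lower in each. For ΔK9.1 the endoderm markers overlapped between the days (5.62 to 11.9 and 6.32 to 45.8 TPM, none of 12 called by limma), and for ΔK9.2 3 of 12 rose (6.26 to 67.5 and 26.1 to 243 TPM, *Ttr* and *Afp* at 0 on day 0). Their part in the rise of ribosomal protein genes was not tested.

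With each library rescaled by the median ratio, which sets the all-gene median to 0, 20, 71 and 64 members rose. With only the compared groups in the fit, 4 members rose for E14Tg2a, 29 for ΔK9.1 and 41 for ΔK9.2. Without replicate 3 of ΔK9.1 on day 4, 25 members rose there, and the 4 that fell became 1 without replicate 1 of that day and 2 without replicate 2 or 3 of that day or without replicate 2 or 3 of day 0.

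The members that rose on day 4 came from both subunits. In all 3 lines 18 rose, and 47 did in at least 1 line, against 3.10% and 12.7% of all genes. With only the compared groups in the fit, where 4 members rose in E14Tg2a, no more than 4 could be shared. The 18 were 9 genes of the small subunit, 7 standard genes of the large subunit, *Rplp0* and the paralog *Rpl22l1*. They included *Rps3*, *Rps12*, *Rps19* and *Rpsa* of the small subunit and *Rpl7a*, *Rpl10a* and *Rpl23a* of the large subunit, named after their values were seen. *Rps3*, which lines the mRNA entry channel, changed by 0.54 (standard error 0.14, adjusted p = 0.00444) in E14Tg2a. *Rps19*, needed for small subunit maturation and mutated in Diamond-Blackfan anaemia, changed by 0.46 (standard error 0.10, adjusted p = 0.00131). *Rpl29*, a large subunit protein outside the 18, changed by 0.58 (standard error 0.15, adjusted p = 0.00443). *Rpl23a*, at the peptide exit tunnel, changed by 0.33 (standard error 0.11, adjusted p = 0.0234). Only 3 members fell in all 3 lines, against 11% of all genes. They were *Rpl10l*, *Rpl36al* and *Rpl7l1*, none of which is a standard gene. After median ratio rescaling none of the 3 was called lower in ΔK9.1, so that no member fell in all 3 lines. The ΔK9.1 call of *Rpl36al* was kept in 4 of 10 alternatives, being lost also without replicate 2 or 3 of day 0 or any 1 library of day 4, and that of *Rpl10l* in 7 of 10, lost also without replicate 1 of either day.

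For most standard genes day 4 was the peak of the course. In E14Tg2a the highest day mean fell on day 4 for 60 of 76 genes, in ΔK9.1 for 73 and in ΔK9.2 for 67, and of all genes 13.8%, 9.54% and 13.2% peaked there. Over all 12 groups, the lowest mean lay on day 8 for 39 standard genes, on day 0 for 30, on day 6 for 7 and on day 4 for 0.

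On day 6, with 2 libraries per line, fewer members were called against day 0 than on day 4. In E14Tg2a 2 members rose and 7 fell (19.6% and 20% of all genes), in ΔK9.1 7 and 4 (11.2% and 20.3%), and in ΔK9.2 6 and 6 (16% and 23.9%). *Rpl22l1* rose in all 3 lines, and *Rpl10l*, *Rpl3l*, *Rps4l* and *Rpl7l1* fell in all 3, against 8.9% and 13.3% of all genes. In E14Tg2a the *Rpl7l1* call of day 6 was kept in 4 of 9 alternatives and was lost when any 1 library of days 0 and 6 was left out. In E14Tg2a the count that rose was 1 without replicate 1 of day 0 or replicate 2 of day 6 and 5 without replicate 3 of day 0, and the count that fell was 4 without either day 6 library. Between days 4 and 6 in E14Tg2a 16 members fell and 0 rose (limma, 23 and 0 at an unadjusted p under 0.05), against 10.2% and 14.4% of all genes.

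On day 8 members were called in both directions in all 3 lines. In E14Tg2a 5 members rose and 28 fell against day 0 (32.1% and 26.2% of all genes), including 4 and 20 standard genes, whose median was -0.11 (all genes, 0.05). In ΔK9.1 4 rose and 7 fell (25.1% and 24.8% of all genes), and in ΔK9.2 15 rose and 9 fell (24.6% and 26.7%). The medians of the standard genes there were 0.02 and 0.08. Over all 91 members, the ΔK9.1 median was -0.071 without replicate 3 of day 8 and 0.070 without replicate 2. The E14Tg2a median over the members, -0.123, was -0.074 without replicate 2 of day 8 and -0.198 without replicate 3. In E14Tg2a these counts were 1 and 31 after median ratio rescaling and 2 and 11 with only the compared groups in the fit. The 28 that fell became 18 without replicate 2 of day 0, and the 5 that rose became 2 without replicate 1 of day 0 or replicate 3 of day 8. In ΔK9.1 16 members fell without replicate 3 of day 8, and 1 rose. There 2 rose without replicate 1 or 2 of day 0. In ΔK9.2 8 rose without replicate 3 of day 8 and 9 without replicate 1 or 2 of day 0.

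From day 4 to day 8 in E14Tg2a, 44 members fell and 0 rose (limma, 51 and 1 at an unadjusted p under 0.05), against 18.2% of all genes that fell and 31.4% that rose. Of the standard genes 39 fell, with a median of -0.25 (all genes, 0.12). With only those groups in the fit 19 members fell, and 1 member rose without replicate 3 of day 4 or replicate 2 of day 8. Over the same days all 5 matrix markers rose in E14Tg2a, from a sum under 1 TPM in every library to 323 to 1679 TPM, with *Lum* at 0 on day 4, and 8 of 11 mesoderm and blood markers, from 26.1 to 52.3 TPM to 1657 to 4898 TPM, with *Hbb-y* at 0 on day 4. Of the pluripotent cell markers 9 of 10 fell, to 418 to 512 TPM, of the endoderm markers 4 of 12 rose and 1 fell, and of the neural markers 1 of 5 fell. Their part in the fall of ribosomal protein genes was not tested.

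*Rpl22l1* and *Rps14* were the 2 members called higher on day 8 in all 3 lines, against 18.4% of all genes. The calls of *Rps14* were lost in 4 of 10 alternatives in E14Tg2a and likewise in ΔK9.1. *Rps14*, a small subunit protein, stood at 5638, 5887 and 6925 TPM at day 0 and 6976, 6858 and 11420.0 TPM by day 8 in E14Tg2a, a change of 0.42 (standard error 0.16, adjusted p = 0.0256). Replicate 3 of day 8 stood far above the other libraries, the days overlapped between their lowest and highest libraries, and the call was kept in 6 of 10 alternatives. Without that library the change was 0.18 (limma, adjusted p = 0.308), and the call was also lost after median ratio rescaling and without replicate 1 or 2 of day 0. *Rpl29*, *Rps3* and *Rps19* were the other members that rose in E14Tg2a, by 0.42 (standard error 0.15, adjusted p = 0.0167), 0.38 (standard error 0.14, adjusted p = 0.0176) and 0.26 (standard error 0.10, adjusted p = 0.0279). Of these calls *Rpl29* and *Rps3* each kept theirs in 7 of 10 alternatives and *Rps19* in 6. All 3 were lost after median ratio rescaling, *Rpl29* also without replicate 3 of day 0 or replicate 1 of day 8, *Rps3* without replicate 1 of day 0 or replicate 3 of day 8, and *Rps19* without replicate 1 of day 0 or replicate 2 or 3 of day 8.

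*Rps12* was the only member called higher on day 4 and lower on day 8 in E14Tg2a. It stood at 3837, 3805 and 4039 TPM on day 0, 5429.8, 5409 and 4922 on day 4, 4045 and 4329 on day 6, then 3259, 2631 and 3133 by day 8. In ΔK9.1 the same days gave 4327, 4186 and 4721, then 5732, 5633 and 5820.2, 4866 and 5823 and 3698, 3634 and 5051 TPM. In ΔK9.2 they gave 3868, 3912 and 4664, then 6053, 5489.8 and 5759, 4869.7 and 5086 and 4272, 3832 and 4351 TPM. All E14Tg2a libraries of day 4 lay above and all of day 8 below those of day 0. On days 4, 6 and 8 every clone library lay above every E14Tg2a library. In E14Tg2a *Rps12* changed by 0.43 (standard error 0.11, adjusted p = 0.00429) to day 4 and by -0.38 (standard error 0.11, adjusted p = 0.00415) to day 8.

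*Rpl30*, a large subunit protein, and *Rplp2*, of the stalk, were among the standard genes that fell to day 8 in E14Tg2a. *Rpl30* stood at 593, 701 and 772 TPM on day 0, 651, 652 and 702 on day 4, 569.6 and 696 on day 6, then 387, 413 and 505 by day 8, a change of -0.66 (standard error 0.15, adjusted p = 0.000379) from day 0 to day 8. *Rplp2* went from 3010.2 ± 252 TPM (SD, n = 3) to 2158 ± 272 TPM (SD, n = 3), a change of -0.48 (standard error 0.13, adjusted p = 0.00229). In ΔK9.1 and ΔK9.2 *Rpl30* changed by -0.34 (standard error 0.15, adjusted p = 0.0536) and -0.38 (standard error 0.15, adjusted p = 0.0304) over the same days. The ΔK9.2 call was kept in 3 of 10 alternatives and was lost when any 1 of the 6 libraries of those days was left out.

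**Figure D2:**
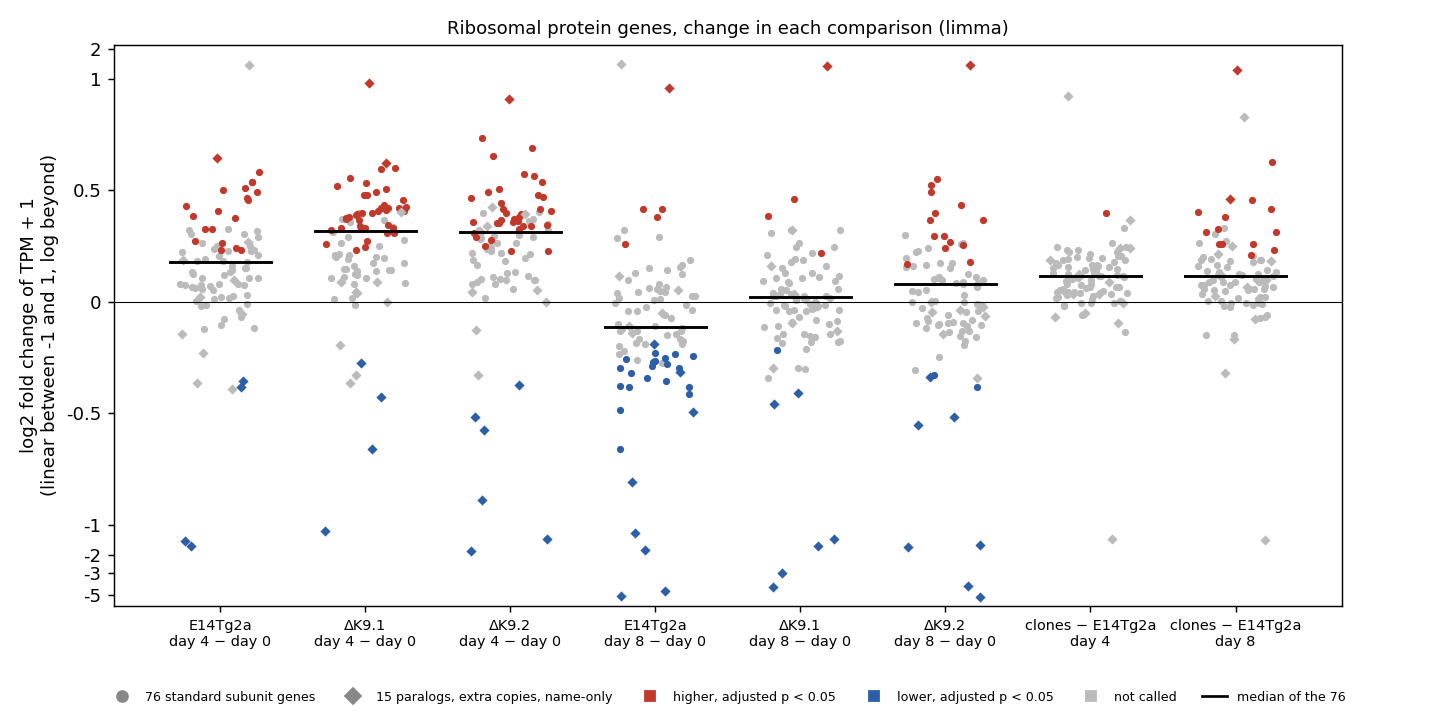
The log2 fold change of TPM + 1 of each of the 91 members in each comparison, linear between -1 and 1 and logarithmic beyond; circles are the 76 standard genes, diamonds the other 15 members, red and blue mark calls of higher and lower, and the black line is the median of the standard genes. On day 4 the median lies above 0 in all 3 lines (0.18, 0.32 and 0.31), and the largest decreases on day 8 belong to diamonds.

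The largest changes from day 0 to day 8 in E14Tg2a were in paralogs. Alternative forms of ribosomal proteins replace or accompany the standard protein in certain tissues. *Rpl10l* and *Rpl39l* are known from the testis, *Rpl3l* from muscle, and *Rpl22l1* from blood development. On the transcripts of the annotation (GENCODE M21), *Rpl10l* matched 84.2% of 669 aligned bases of *Rpl10* and has 1 exon against 6, and *Rpl39l* matched 83.1% of 183 bases of *Rpl39*. *Rpl22l1* matched 75.5% of 294 bases of *Rpl22*, *Rps27l* 76.4% of 220 bases of *Rps27*, *Rpl36al* 85.6% of 362 bases of *Rpl36a*, *Rpl3l* 74.4% of 1186 bases of *Rpl3*, and *Rps4l*, with 1 exon against 7, 78.6% of 903 bases of *Rps4x*. Windows at or near the starts of 3 pairs are shown, with runs of C or T in capitals as above. *Rpl10l*, *Rpl39l* and *Rpl22l1* are the paralogs the values below turn on.
Rpl10l, chr12:66284387-66284416, minus strand: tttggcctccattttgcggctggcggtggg
Rpl10, chrX:74270801-74270830, plus strand: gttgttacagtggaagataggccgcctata
Rpl39l, chr16:10170191-10170220, plus strand: aacacccactgCCTCTCCCTagctcccagg
Rpl39, chrX:37085225-37085254, minus strand: cgagtcatccaTCCCCCCCTaagctccgcc
Rpl22l1, chr3:28805499-28805528, plus strand: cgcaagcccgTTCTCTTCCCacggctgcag
Rpl22, chr4:152325711-152325740, plus strand: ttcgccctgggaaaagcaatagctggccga
*Rpl39l*, *Rpl39* and *Rpl22l1* hold the run, and *Rpl10l*, *Rpl10* and *Rpl22* do not. The runs of *Rpl39l* and *Rpl39* begin at offsets of -26 and -21 bases from the annotated start, and both windows lie wholly before it. The run of *Rpl22l1* begins at an offset of 1.

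*Rpl10l* fell on every later day. In E14Tg2a it stood at 105, 62 and 59.6 TPM on day 0, 31.5, 21.6 and 17.2 on day 4, 7.48 and 6.53 on day 6, then 1.39, 0.807 and 0.955 by day 8. In ΔK9.1 it went from 128, 114 and 113 TPM on day 0 to 2.89, 4.4 and 12.7 on day 8, and in ΔK9.2 from 153, 118 and 135 to 1.17, 3.27 and 3.27. Groups of successive days in E14Tg2a did not overlap, and its day 8 mean was 1.39% of its day 0 mean, with 5.64% for ΔK9.1 (3.08% without replicate 3 of day 8) and 1.90% for ΔK9.2. Fitted changes from day 0 to day 8 were -5.18 (standard error 0.36, adjusted p = 1.85e-11), -4.17 (standard error 0.36, adjusted p = 1.51e-09) and -5.31 (standard error 0.36, adjusted p = 1.87e-11).

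*Rpl39l* also fell to a few percent of its starting level in E14Tg2a. It stood at 77.9, 47.3 and 70 TPM at day 0 and 1.74, 1.7 and 1.47 by day 8 in E14Tg2a, 48.5, 25.5 and 42 and 1.97, 1.13 and 15.3 in ΔK9.1, and 99.8, 63.3 and 81.7 and 1.98, 4.68 and 4.94 in ΔK9.2. The day 8 mean was 2.51%, 15.8% and 4.74% of the day 0 mean, and the 15.8% rests on replicate 3 of ΔK9.1, which stood far above the other 2. The changes were -4.62 (standard error 0.48, adjusted p = 9.6e-09), -3.03 (standard error 0.48, adjusted p = 9.57e-06) and -4.13 (standard error 0.48, adjusted p = 8.87e-08). Without that library the ΔK9.1 day 8 mean was 4.00% of the day 0 mean.

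*Rps4l*, an intronless copy annotated as a transcribed pseudogene, was far more abundant. Its level was 773 ± 24.5 TPM (SD, n = 3) at the start and 223 ± 35.9 TPM (SD, n = 3) by day 8 in E14Tg2a, a change of -1.80 (standard error 0.15, adjusted p = 2.62e-10). In ΔK9.1 it was 767 ± 21.6 TPM (SD, n = 3) and 299.8 ± 65.3 TPM (SD, n = 3), and in ΔK9.2 741 ± 30.3 TPM (SD, n = 3) and 236 ± 36.2 TPM (SD, n = 3). Set against *Rps4x* in the same library, its level in E14Tg2a dropped from 25.8 to 28.8% on day 0 to 7.32 to 11.1% on day 8.

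*Rpl22l1* moved the other way. It stood at 646, 659 and 750.1 TPM on day 0, 1093, 911 and 1224 on day 4, 1300.0 and 1346 on day 6, then 1288, 1103 and 1647 by day 8 in E14Tg2a. The day 8 mean was 197% of the day 0 mean for E14Tg2a, 252% for ΔK9.1 and 260% for ΔK9.2. The changes to day 8 were 0.96 (standard error 0.14, adjusted p = 3.45e-06), 1.34 (standard error 0.14, adjusted p = 4.3e-08) and 1.37 (standard error 0.14, adjusted p = 2.01e-08), and the day 4 change in E14Tg2a was 0.64 (standard error 0.14, adjusted p = 0.0017). In E14Tg2a its level was 82.3 to 126% of that of *Rpl22* on day 0 and 232 to 298% on day 8.

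The remaining paralogs fell or were not called. *Rpl36al* went from 1109.9 ± 26.9 TPM (SD, n = 3) on day 0 to 792 ± 92.6 TPM (SD, n = 3) on day 8 in E14Tg2a, a change of -0.49 (standard error 0.10, adjusted p = 9.78e-05). *Rps27l*, a target of p53, went from 1767 ± 90.9 TPM (SD, n = 3) to 1607 ± 159 TPM (SD, n = 3), a change of -0.14 (standard error 0.11, adjusted p = 0.269). *Rpl3l*, at 2.12 ± 0.841 TPM (SD, n = 3) at the start and 0.334 ± 0.182 TPM (SD, n = 3) by day 8, changed by -1.20 (standard error 0.22, adjusted p = 4.95e-05), and its level is close to the pseudocount. *Rpl10l*, *Rpl39l*, *Rpl3l*, *Rps4l* and *Rpl36al* fell in all 3 lines on day 8, and *Rpl10l*, *Rpl3l* and *Rps4l* did so on day 6 too. With *Rpl7l1*, 6 members fell in all 3 lines on day 8, against 17.5% of all genes. *Rpl7l1*, a nucleolar factor that is no ribosomal protein despite its name, changed by -0.81 (standard error 0.10, adjusted p = 1.52e-07) in E14Tg2a, and *Rps19bp1*, a nucleolar binding partner of *Rps19*, by -0.32 (standard error 0.13, adjusted p = 0.0414). The *Rps19bp1* call was lost without replicate 1 or 2 of day 0 or replicate 2 or 3 of day 8.

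**Figure D3:**
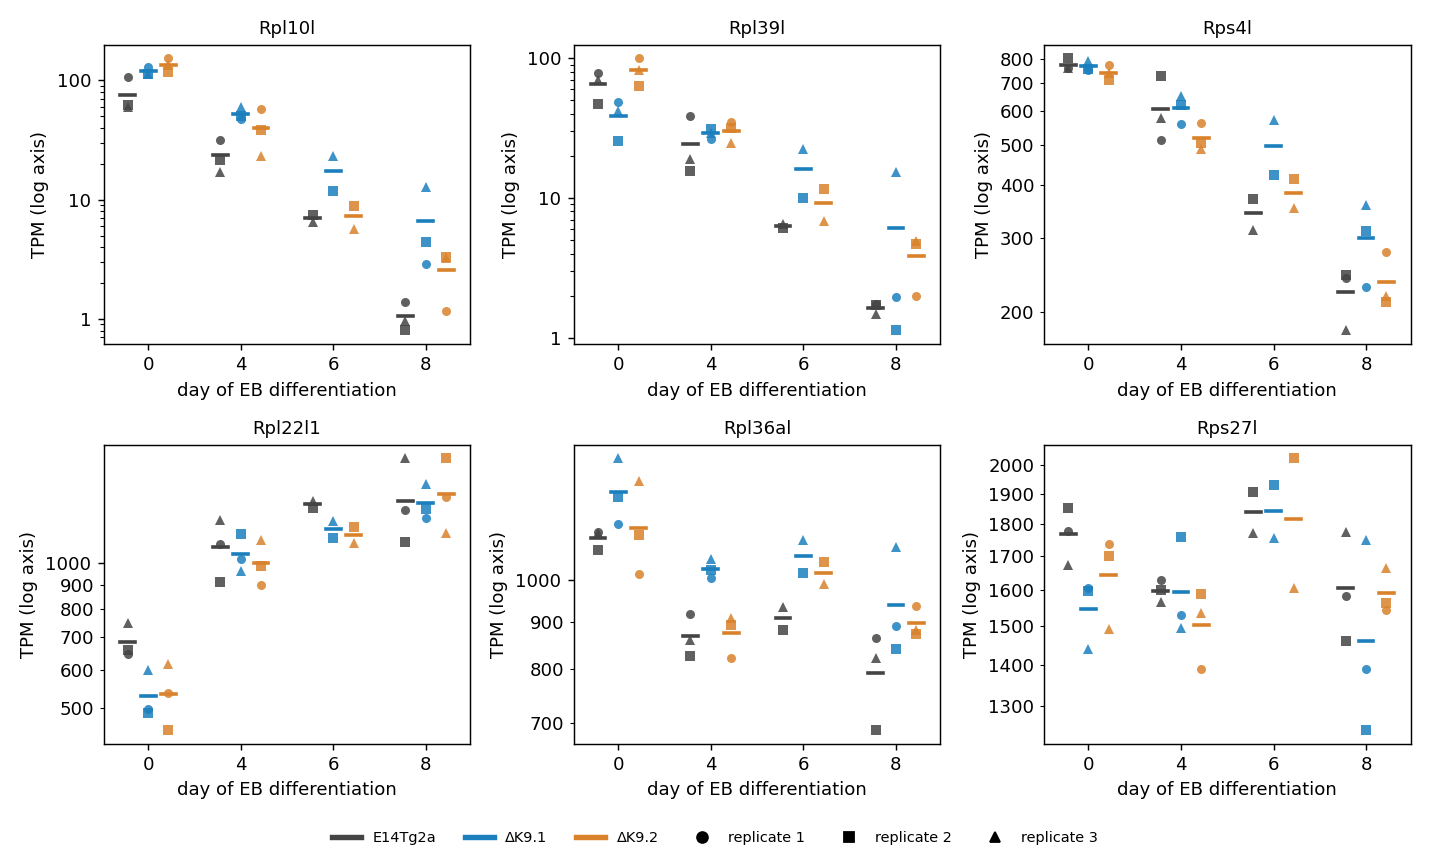
TPM of 6 paralogs in each of the 33 libraries by day, on log axes; colours are lines, symbols are replicate numbers and bars are group means. *Rpl10l* and *Rpl39l* drop to a few TPM or less by day 8, except for replicate 3 of ΔK9.1 (12.7 and 15.3 TPM), *Rps4l* drops to 28.8 to 39.1% of its day 0 mean, and *Rpl22l1* rises.

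Several copies share nearly all their sequence with a standard gene, so that the assignment of reads between them is uncertain. *Rps3a2* and *Rps3a3* matched 99.5% and 98.9% of *Rps3a1*, and in the files *Rps3a1* held only 7.68% of their summed TPM, which lay between 3443 and 4415 TPM over all libraries. *Rpl37rt* matched 99.7% of 344 bases of *Rpl37*, *Rpl6l* 98.7% of *Rpl6*, *Rps27rt* 100% of 307 bases of *Rps27*, and *Rps12l1* 100% of its 399 bases of *Rps12*. *Rps12l1* was listed at 0 in 30 of 33 libraries and at 16.6 to 17.7 TPM in the other 3, beside 2631 to 6053 TPM for *Rps12* and *Rps12l1* summed.

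Whether the subunits kept their proportion was asked of the standard genes. Small subunit genes held 46.3 to 49.3% of the standard genes' TPM in all libraries. Over the 3 lines their part was 0.636 percentage points higher on day 4 than on day 0 (exact permutation test, p = 0.00425, adjusted p = 0.0085) and 0.633 points higher on day 6 (exact permutation test, p = 0.002, the smallest it can give, adjusted p = 0.008). On day 8 it was 0.228 points above day 0 (exact permutation test, p = 0.337). The 3 stalk genes held 3.82 to 5.94% of the standard genes' TPM. Their part fell by 0.537 points from day 4 to day 8 (exact permutation test, p = 0.0055, adjusted p = 0.022), while day 6 was 0.404 above and day 8 0.390 below day 0 (exact permutation test, p = 0.034 and p = 0.0423, adjusted p = 0.0563 each). With the lines averaged within replicate numbers, these differences had p = 0.1 to 0.4 by an exact permutation test, which cannot go below 0.1, or 0.2 on day 6.

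The comparison of both ΔK9 clones with E14Tg2a asked whether the members differ between the clones and E14Tg2a on a given day. Its permutation tests take all libraries of both clones as independent, and they cannot tell the deletion from a clone's own variation. On day 0 the summed share was 25.4% in both (exact permutation test, p = 1), and the libraries overlapped. Limma called 0 members higher and 1 lower (all genes, 2.76% and 1.23%), and at an unadjusted p under 0.05 it called 3 and 4. ΔK9.1 alone had 0 members higher and 1 lower (all genes, 7.76% and 3.31%, unadjusted 2 and 4), and ΔK9.2 alone 0 in either direction (all genes, 0.0612% and 0.147%, unadjusted 3 and 2). In 3 members the clone libraries lay above all E14Tg2a libraries and in 3 below (all genes, 5.17% and 2.75%). The member called in the comparison with both clones was *Rpl7*, a large subunit protein, at 2789.6, 3119 and 3258 TPM in E14Tg2a. Its ΔK9.1 libraries stood at 2284, 2283 and 2285 TPM and its ΔK9.2 libraries at 2562, 2652 and 2839 TPM, a change of -0.30 (standard error 0.07, adjusted p = 0.0172). The highest clone library lay above the lowest E14Tg2a library. *Rpl7* was not called without replicate 2 or replicate 3 of E14Tg2a on day 0.

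On day 4 the share was higher in the clones, at 31.4% against 28.9% in E14Tg2a, a difference of 2.50 percentage points with no overlap between libraries (exact permutation test, p = 0.0238, no smaller value being possible with 3 and 6 libraries, adjusted p = 0.0952 over the 4 days). Without any 1 of the 3 E14Tg2a libraries the difference lay between 2.14 and 2.73 points (exact permutation test, p = 0.0714, the smallest then possible). Of the standard genes 69 of 76 had a positive value, with a median log2 fold change of 0.12. Only *Rplp0* was called higher and 0 members were called lower (all genes, 0.447% and 2.4%), while 16 and 0 passed at an unadjusted p under 0.05. In 14 members every clone library lay above every E14Tg2a library and in 0 below, compared with 1.63% and 5.95% of all genes. The change from day 0 to day 4 was not called different for any member (0 of 91 by limma, 3 higher and 0 lower at an unadjusted p under 0.05; all genes, 0.0122% and 0.00612%).

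Cell type markers were also compared between the clones and E14Tg2a on day 4. Of 12 markers of primitive and visceral endoderm 8 were lower in the clones on that day. Their summed TPM ranged from 114 to 913 for E14Tg2a, 6.32 to 45.8 for ΔK9.1 and 26.1 to 243 for ΔK9.2. None was at 0 throughout a group, and ΔK9.2 overlapped E14Tg2a. The sums of the pluripotent cell markers overlapped (4678 to 6373, 5379 to 6741 and 4549 to 7991 TPM). So did those of mesoderm and blood (26.1 to 52.3, 46.2 to 49.8 and 27.2 to 60.3 TPM) and neural markers (25.3 to 44.9, 27.6 to 44.9 and 23.9 to 44.9 TPM). Matrix markers summed to under 1 TPM in every library. The part of these markers in the day 4 difference was not tested.

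On day 6 the share was 0.735 points higher in the clones (exact permutation test, p = 0.533), and without replicate 3 of ΔK9.1 the difference was -0.00263. On that day *Rplp0* was the 1 member called higher and 0 were called lower (all genes, 1.11% and 2.72%), with 5 and 2 at an unadjusted p under 0.05. Libraries did not overlap in 10 members that lay higher and 5 that lay lower (all genes, 12.8% and 19.6%).

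On day 8 the share was 26.2% in the clones and 24.3% in E14Tg2a (exact permutation test, p = 0.286), and the libraries overlapped. Replicate 3 was the highest library of all 3 lines, at 27.4, 29.9 and 27.4%. Of the members 15 were higher in the clones and 0 lower (limma, 25 and 0 at an unadjusted p under 0.05), against 7.52% and 12.2% of all genes. They comprised 13 standard genes, *Rpl10l* and *Rpl7l1*, and 64 of 76 standard genes had a positive value, with a median of 0.11. The median over all 91 members, 0.113, was 0.066 without replicate 2 and 0.181 without replicate 3 of E14Tg2a on day 8. In 9 members the clone libraries lay above all E14Tg2a libraries and in 0 below (all genes, 5.44% and 7.99%). Without replicate 2 of E14Tg2a on day 8 the count was 7, without replicate 2 of ΔK9.1 23, and 1 member was lower without replicate 1 of E14Tg2a. With only the groups compared in the fit it was 0, and with median ratio rescaling 11. ΔK9.1 alone had 10 members higher and 0 lower (all genes, 4.65% and 6.68%, unadjusted 22 and 0), and ΔK9.2 alone 8 and 0 (all genes, 5.31% and 11.3%, unadjusted 25 and 2). With median ratio rescaling, 4 were higher for ΔK9.1 alone and 9 for ΔK9.2 alone, and 0 were lower. In the difference of the change from day 0 to day 8, clones minus E14Tg2a, 1 member was called higher and 0 lower (all genes, 1.35% and 4.95%, unadjusted 11 and 0), namely *Rpl21*.

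The 5 called members with the largest change on day 8 were *Rpl10l*, at 1.22 (standard error 0.31, adjusted p = 0.00746), *Rplp0*, at 0.63 (standard error 0.11, adjusted p = 0.000314), *Rpl7l1*, at 0.46 (standard error 0.09, adjusted p = 0.00051), *Rps12*, at 0.46 (standard error 0.09, adjusted p = 0.00124), and *Rpl30*, at 0.42 (standard error 0.13, adjusted p = 0.0209). The other 10, named after their values were seen, were *Rps20*, *Rpl22*, *Rplp2*, *Rpl12*, *Rpsa*, *Rps25*, *Rps2*, *Rpl35a*, *Rpl21* and *Rps4x*, with changes of 0.21 to 0.40. *Rpl10l* stood close to the pseudocount on day 8 in E14Tg2a (1.39, 0.807 and 0.955 TPM), and ΔK9.2 (1.17, 3.27 and 3.27 TPM) overlapped E14Tg2a. On day 0 *Rpl10l* lay 0.78 higher in the clones too, without a call (limma, adjusted p = 0.178). Its difference of change was 0.44 (limma, adjusted p = 0.607). In the 13 alternatives computed for single genes, which do not include the fit of the compared groups alone, *Rplp0*, *Rpl7l1*, *Rps12*, *Rpl21*, *Rps25* and *Rpsa* were called each time. *Rplp2* and *Rps2* were called in 7, *Rpl22* in 8, *Rpl12* in 9 and the other 5 in 10 to 12.

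*Rplp0*, the base of the stalk, lay higher in the clones on every day. In E14Tg2a it stood at 2072, 1846 and 2000.4 TPM on day 0, 2693, 2482 and 2505 on day 4, 2181 and 2385 on day 6, then 2402, 1596 and 1983 by day 8. In ΔK9.1 it stood at 2413, 2286 and 2841 TPM on day 0, 3096, 3386 and 4052 on day 4, 3182 and 3809.5 on day 6, then 2911, 2684 and 3094 by day 8. In ΔK9.2 the levels were 2364, 2246 and 2860.3 TPM, then 2948, 3364 and 3501, 3564 and 3319.9 and 3444, 2944 and 3217. On each day every clone library lay above every E14Tg2a library of that day. The fitted difference was 0.34 (standard error 0.11, adjusted p = 0.0857) on day 0, 0.40 (standard error 0.11, adjusted p = 0.0471) on day 4 and 0.60 (standard error 0.14, adjusted p = 0.0103) on day 6. The day 4 call was kept in 5 of 13 alternatives and the day 6 call in 7 of 10. It was lost on day 4 after median ratio rescaling, without any 1 of the E14Tg2a libraries or without replicate 2 or 3 of ΔK9.1 or ΔK9.2, and on day 6 without either E14Tg2a library or replicate 3 of ΔK9.1. With only the compared groups in the fit no member was called higher on either day. The stalk genes as a part of the standard genes were 0.488 points higher on day 0 and 0.415 on day 4 (exact permutation test, p = 0.0476 each, adjusted p = 0.0952 each), 0.813 on day 6 (exact permutation test, p = 0.133, the smallest possible) and 0.637 on day 8 (exact permutation test, p = 0.119).

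*Rplp1* and *Rplp2*, which form the flexible arms of the stalk, were at 5628 ± 798 TPM (SD, n = 3) and 2158 ± 272 TPM (SD, n = 3) on day 8 in E14Tg2a. The clones differed from E14Tg2a on that day by 0.19 (standard error 0.12, adjusted p = 0.32) for *Rplp1* and 0.33 (standard error 0.11, adjusted p = 0.0398) for *Rplp2*. The *Rplp2* call was lost after median ratio rescaling and without replicate 1 or 2 of E14Tg2a, replicate 3 of ΔK9.1 or replicate 1 or 2 of ΔK9.2.

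**Figure D4:**
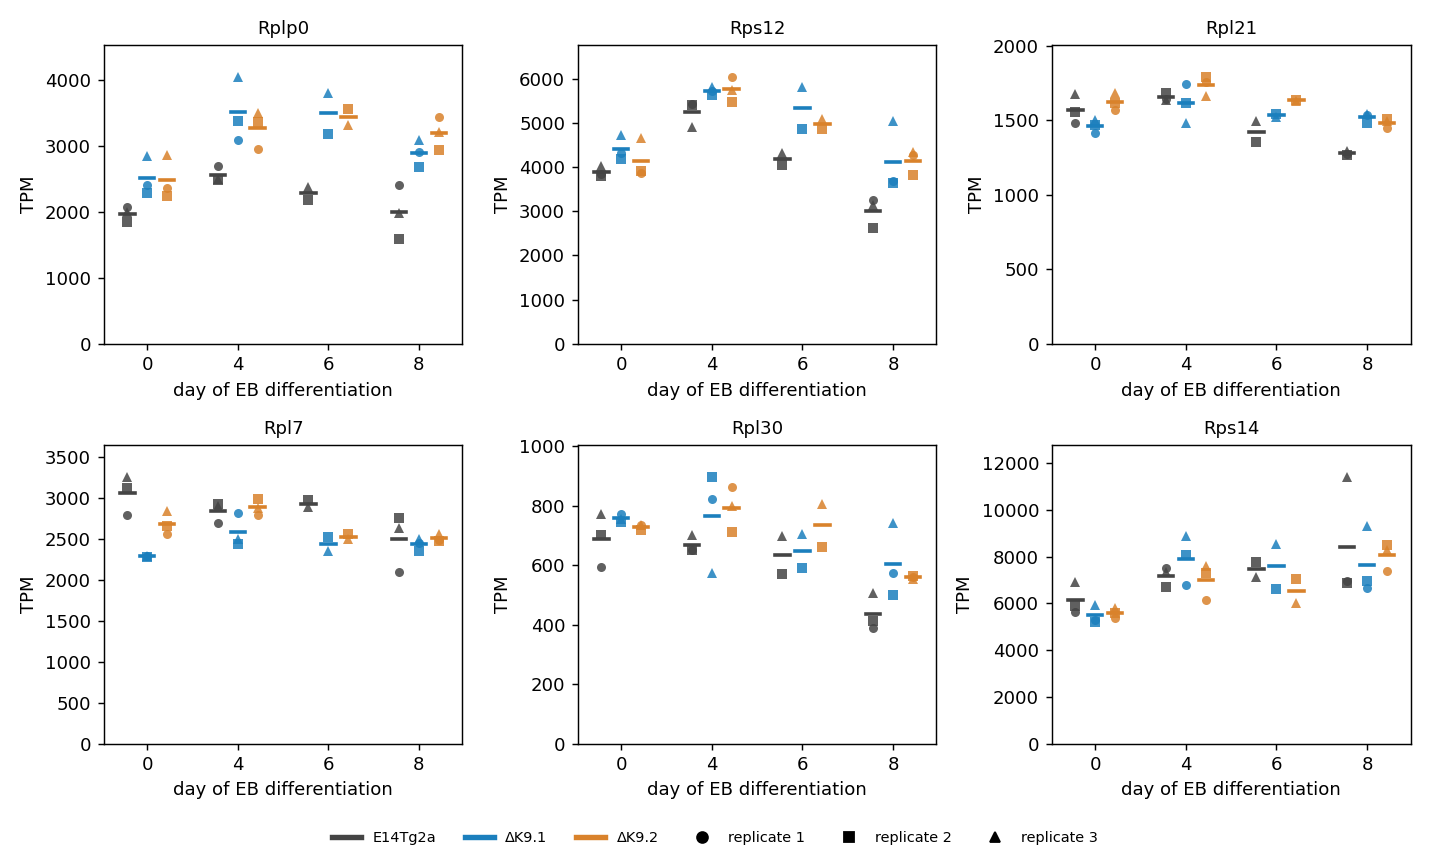
TPM of *Rplp0*, *Rps12*, *Rpl21*, *Rpl7*, *Rpl30* and *Rps14* in each of the 33 libraries by day, on linear axes from 0; colours are lines, symbols are replicate numbers and bars are group means. For *Rplp0* every clone library lies above every E14Tg2a library of the same day.

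Cell type markers also moved between clones and E14Tg2a on day 8. Of 10 pluripotent cell markers 8 were higher and 1 lower in the clones, summing to 418 to 512 TPM for E14Tg2a, 763 to 1763 for ΔK9.1 and 943 to 1413 for ΔK9.2. Of 5 fibroblast-like matrix markers 5 were lower, summing to 323 to 1679 TPM for E14Tg2a, 27.5 to 135 for ΔK9.1 and 22.3 to 80.0 for ΔK9.2. Of 11 markers of mesoderm and blood 3 were higher and 5 lower, summing to 1657 to 4898, 191 to 2063 and 370 to 803 TPM. Of the endoderm markers 7 of 12 were lower, summing to 406 to 551, 47.1 to 183 and 75.7 to 96.0 TPM, and 1 of 5 neural markers was lower (24.7 to 50.6, 42.7 to 48.1 and 30.7 to 52.4 TPM). No marker of these lists was at 0 in a whole group on day 8, whereas on day 0 *Hbb-y* and *Hbb-bh1*, of blood, and *Lum*, of matrix, were so in every line. The part of these cell types in the differences of ribosomal protein genes was not tested.

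Other genes of ribosome production and translation were taken from lists written by hand. Of 65 ribosome assembly factors, which process rRNA and fold it with the proteins, 18 fell on day 4 in E14Tg2a and 1 rose, while 26 fell for ΔK9.1 and 40 for ΔK9.2, against 15.9%, 24.9% and 24.2% of all genes. The 18 became 10 without replicate 1 of day 4, the 26 became 15 without replicate 2 of day 0 or replicate 3 of day 4, and the 40 became 26 and 23 without the same replicates of ΔK9.2. By day 8, 56, 36 and 43 fell (all genes, 26.2%, 24.8% and 26.7%), with median log2 fold changes of -0.85, -0.40 and -0.48. With median ratio rescaling, the 26 and 40 that fell on day 4 in the clones became 3 and 19. In the clones against E14Tg2a on day 8, 36 of 65 were higher (all genes, 7.52%). That count was 10 without replicate 2 and 19 without replicate 3 of E14Tg2a on day 8, and 1 with only the compared groups in the fit. *Npm1*, *Ncl* and *Nop58*, nucleolar proteins, decreased by 0.47 (adjusted p = 0.000249), decreased by 1.15 (adjusted p = 8.48e-07) and decreased by 1.02 (adjusted p = 1.08e-07) on the log2 scale to day 8 in E14Tg2a.

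Of 20 genes of RNA polymerase I, which makes the large rRNAs, 12, 10 and 11 fell by day 8 in the 3 lines (all genes, 26.2%, 24.8% and 26.7%), and 6 were higher in the clones on day 8 (all genes, 7.52%). Of 30 translation initiation factors 10 fell on day 8 in E14Tg2a, near the 26.2% of all genes, 3 rose, against 32.1% of all genes, and 6 were higher in the clones (all genes, 7.52%). Of 7 elongation factors listed, 3 fell by day 8 in E14Tg2a (all genes, 26.2%). Other genes with TOP mRNAs, 12 listed, had 1 called lower on day 4 in each line, and 4, 6 and 8 called higher, against 10.4%, 4.28% and 8.09% of all genes. On day 8, 4, 5 and 8 of them rose (all genes, 32.1%, 25.1% and 24.6%) and 2, 1 and 1 fell. Of the Myc family and its partners, 11 listed, 1 rose and 2 fell on day 4 in E14Tg2a, and of 14 TOR pathway regulators 4 fell (all genes, 10.4% higher and 15.9% lower).

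*Myc* itself, a regulator of ribosome production, changed by -1.34 to day 4 in E14Tg2a (adjusted p = 0.0146) and by 0.33 to day 8 (adjusted p = 0.503). *Mycn* changed by -0.56 (adjusted p = 0.046) and -0.95 (adjusted p = 0.000307). *Fau*, which encodes the small subunit protein S30, changed by 0.45 to day 4 in E14Tg2a (adjusted p = 1.99e-05) and *Rack1* by 0.19 (adjusted p = 0.169), and in both clones both rose on that day.

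**Figure D5:**
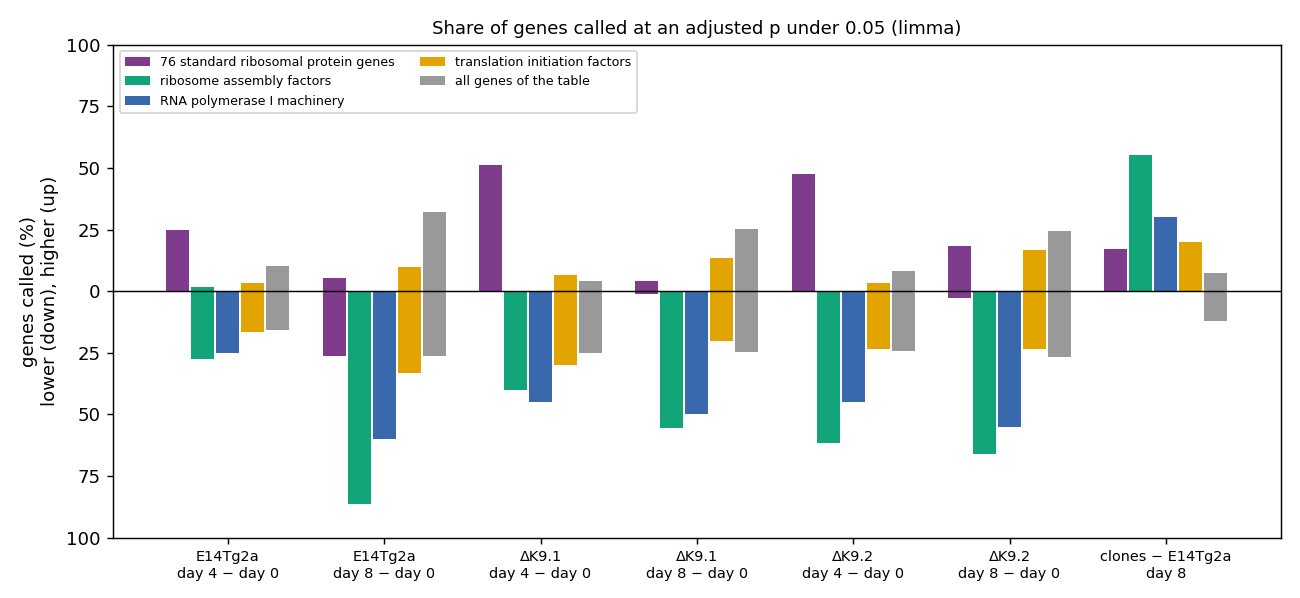
The share of genes (%) called higher (bars up) and lower (bars down) at an adjusted p under 0.05 by limma, for the 76 standard ribosomal protein genes, ribosome assembly factors, RNA polymerase I machinery, translation initiation factors and all genes, in each comparison. On day 4 more standard genes were called higher than lower in all 3 lines, and more assembly factors lower than higher, except that median ratio rescaling gave 3 of each in ΔK9.1.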

How the data were processed

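Stranded poly-A libraries were sequenced paired-end, aligned to mm10 with STAR and quantified with RSEM by the authors, who deposited TPM per library after omitting outliers found by principal component analysis, without saying in the sources used here what was omitted. Versions are not given in the sources used here. The log2 fold changes and FDR (adjusted p-values) in the deposited table are the authors' own DESeq2 comparisons and were not used here. The highest group mean of each of the 16336 listed genes is 1 TPM or more. TPM keep no counts, so the depth behind each value was taken as unknown and the precision came from replicates.

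All tests across genes used limma 3.58.1 in R 4.3.3 on log2(TPM + 1), which understates changes of low genes, with an intensity trend, 12 groups of line and day over all 33 libraries, no block and Benjamini-Hochberg adjustment over all genes. Clones were compared as the mean of both against E14Tg2a. For shares, exact permutation tests were two-sided (p as 2 times the smaller tail, at most 1), over libraries of a day or with the day permuted within lines, and adjusted over 4 tests per measure. Both were tested on simulated data. Genes were placed with GENCODE M21, and sequences came from RefSeq (GRCm38.p6), whose promoters were matched by symbol. Transcripts were aligned with Biopython 1.88 in Python 3.11.15.

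Members and lists (ribosome assembly factors, RNA polymerase I, initiation and elongation factors, other TOP mRNAs, Myc family, TOR pathway, and markers of pluripotent, endoderm, mesoderm and blood, neural and fibroblast-like matrix cells) were chosen with earlier results of these data known. Named members are the 5 highest and 5 lowest by mean TPM, the stalk genes, the paralogs, the name-only genes and the 5 called members with the largest change per direction for day 8 in E14Tg2a, for the clones on each day and for the difference of change; of each list at most 3 genes. Others named were chosen after values were seen. The alternatives used a pseudocount of 0.1, a minimum of 5 TPM, median ratio rescaling, the replicate number as a block, only the compared groups, standard genes only, the median of log2 values, each library left out, and, chosen after seeing the data, the third libraries of day 8 omitted together and the lines averaged within replicate numbers. Values of a few single genes are not reported here.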

Additional observations from a re-analysis of the deposited data

Results flagged for a closer look

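*Rpl21*, a large subunit protein, changed differently from day 0 to day 8 in the clones and in E14Tg2a, by limma's interaction term. The difference of the change, clones minus E14Tg2a, was 0.259 on the log2 scale (standard error 0.08, adjusted p = 0.0498). It was the only 1 of 91 members past the threshold (11 at an unadjusted p under 0.05), against 1.35% of all genes. In E14Tg2a *Rpl21* stood at 1482, 1557 and 1679.7 TPM on day 0, then 1274, 1267 and 1297 by day 8. In ΔK9.1 it stood at 1414, 1467 and 1506 TPM on day 0, then 1537, 1481 and 1543 by day 8, and in ΔK9.2 at 1573, 1618 and 1682 TPM and 1446, 1508 and 1499. The day 8 libraries lay below all day 0 libraries in E14Tg2a and in ΔK9.2, and in ΔK9.1 they overlapped. The call was kept in 4 of 22 alternatives, and the adjusted p reached 0.177.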

How the results depend on the processing

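Libraries of the same replicate number and day but different lines had, after removal of group means, a correlation above 0.1 in 31 of 33 pairs (lowest -0.0129, median 0.222, other numbers -0.127 over 60 pairs), and 33 of 33 libraries correlated best with their own number. The methods describe 3 independent assays with the lines in parallel but tie no number to an assay, so this is a hint from the data. With the replicate block, members called higher were 4 (day 6) and 9 (day 8) in E14Tg2a, 12 in ΔK9.1 (day 8, with 11 lower), 56 in ΔK9.2 (day 4), and 1, 2 and 23 in the clones against E14Tg2a on days 0, 4 and 8, with 3 in the difference of change. The share differences of days 4 and 8, 2.50 and 1.90 points, then had p = 0.0741 each (exact permutation within numbers, the smallest possible), and in each number of day 8 both clones lay above E14Tg2a, with ΔK9.2 and E14Tg2a both at 27.4% in number 3. With the lines averaged within numbers (exact permutation test), the day differences over the 3 lines had p = 0.1 for the share (5.24 and -5.03 points), the small subunit part on day 4 (0.636) and the stalk part from day 4 to day 8 (-0.537), and p = 0.2 to 0.4 for 0.633 and 0.404 on day 6 and -0.390 on day 8, where 0.1 (day 6, 0.2) is the smallest possible. In the 13 comparisons fitted with the block it moved no other count of members by over 1.5 times. Assembly factors called higher in the difference of change went from 11 to 20, those higher in the clones on day 6 from 1 to 2 and those lower on day 0 from 1 to 2.

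With only the compared groups, members higher were 4, 1 and 2 in E14Tg2a (days 4, 6 and 8; 11 lower on day 8, 19 from day 4 to day 8), 1 in ΔK9.1 and 7 in ΔK9.2 (day 8), and 0 in the clones against E14Tg2a on days 4, 6 and 8 and in the difference of change. With median ratio rescaling they were 1 and 1 in E14Tg2a (days 6 and 8), 71 in ΔK9.1 (day 4, 0 lower), 64 in ΔK9.2 (3 lower), 1 in ΔK9.1 on day 8, 3 in the clones on day 4 and 0 in the difference of change. A pseudocount of 0.1 gave 0 in the difference of change, and a minimum of 5 TPM gave 4 in E14Tg2a on day 6. Without the third libraries of day 8 together, 2 were higher in E14Tg2a, 18 lower in ΔK9.1 and 2 higher in the difference of change. The share difference of day 0, clones minus E14Tg2a, reversed to 0.0212 points with standard genes only and to 0.00520 with the median of log2 values.

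Leaving out 1 library at a time gave 1 to 5 and 2 to 6 members higher in E14Tg2a (days 6 and 8), 4 to 5 and 18 to 31 lower, and 0 to 1 higher from day 4 to day 8. It gave 25 to 39 higher and 1 to 3 lower in ΔK9.1 on day 4, 1 to 6 and 6 to 16 on day 8, and 8 to 17 higher in ΔK9.2 on day 8. For the clones it gave 0 to 1 lower on day 0, 0 to 1 higher on days 4 and 6, 7 to 23 higher and 0 to 1 lower on day 8, and 0 to 4 higher in the difference of change. Share differences ran from -0.0587 to 1.14 (E14Tg2a, day 6), -0.0795 to 3.21 and -1.48 to 1.67 (ΔK9.1, days 6 and 8), -0.573 to 0.423 (clones, day 0), 2.14 to 2.73 (day 4), -0.00263 to 1.33 (day 6) and 1.02 to 3.43 (day 8), with -2.59 to -0.180 in E14Tg2a on day 8 and 0.358 to 1.62 and 0.738 to 1.74 in ΔK9.2 on days 6 and 8. The -1.48 was reached without replicate 3 of day 8. The cause was not tested. No call of a single named member reversed in any alternative. The spread of 2 to 3 libraries per group limits how small a change can be called.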

Other observations

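In 7 members, *Rpl11*, *Rpl31*, *Rpl35*, *Rpl39*, *Rps15a*, *Rps24* and *Rps9*, all standard genes of either subunit, the library numbered 3 was the highest of its group in all 12 groups of line and day. This held for 7.69% of the 91 members and for 20 of 16336 genes (0.122%), and the 7 were chosen after their values were seen.

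The 77 dropped names with "-ps" held 0.843 to 1.19% of the listed TPM over the 33 libraries, and 781 other processed pseudogenes of the annotation 4.48 to 6.07%. On day 4 the "-ps" names held 1.09% in the clones and 1.07% in E14Tg2a (exact permutation test, p = 0.762). From day 0 to day 4 their share rose without overlap of libraries in each line, as the share of the members did, from 0.900 to 0.919% to 1.04 to 1.11% in E14Tg2a, from 0.862 to 0.918% to 1.01 to 1.19% for ΔK9.1 and from 0.877 to 0.939% to 1.04 to 1.14% for ΔK9.2.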
